A study of Drosophila melanogaster with 46 samples.

Results

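The RNA of 5 genes that the annotation knows only by a number was followed through ageing and diet in whole female fruit flies: CG7763, CG10943, CG13324, CG16762 and the long noncoding RNA lncRNA:CR32368. They were picked because their RNA was much higher in old than in middle-aged flies of the control line C on optimal food and on overfeeding. They are 5 of the 11981 genes that the array's annotation names, and each was read by 1 probe set that names no other gene. The genes were thus chosen by the log2 values of C flies on those foods, which are given below as a description with no test. Tests were kept to comparisons that use no group mean of those flies. For differences between groups their arrays still enter the estimate of spread, since all arrays share a fit.

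The samples were 46 pools of 5 whole virgin females, each read on an Affymetrix Drosophila array. The flies came from a single line selected for starvation resistance, SR, which is long-lived, and from a single control line, C, so a difference between lines is a difference between these 2 lines. Food was the standard medium at relative concentrations of 0.5 (malnutrition), 2 (optimal food) or 5 (overfeeding) in yeast and sugar. Flies were taken as middle-aged at 90% survival of their cohort and as old at 10% survival, so groups of the same age class can differ in days. There were 12 groups of line, food and age, 10 of them with 4 arrays and 2 with 3, the old C flies on malnutrition and on overfeeding. The labels call the arrays of a group biological replicates.

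Genes with a CG number were found by genome annotation, and many of them have been given no function by experiment. CG7763 belongs to the family with a C-type lectin domain, a fold that in many animals binds sugars, including those on the surface of microbes. A long noncoding RNA is a transcript with no long reading frame. For CG10943, CG13324 and CG16762 no function is stated here. CG7763 and CG13324 lie on chromosome arm 2R, and the other three genes on 3L. RNA from a whole fly mixes all tissues, so fewer cells of a type and less RNA per cell cannot be told apart.

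The array medians ran from 5.04 to 5.27 on the log2 scale, and within groups any pair of arrays correlated at r = 0.974 to 0.998 over the probe sets. Among female markers Yp1, a yolk protein, had a mean of 12.91, and osk, a gene of the egg's germ plasm, had a mean of 12.17. Not all germline genes were bright, with means of 5.75 for vas and 3.73 for bgcn. Genes of the male germline and accessory gland averaged 3.42 to 3.67 per array over a list of 14. Single genes of this list had means of 2.98 to 5.31, so the level read for such genes differs between probe sets. CG7763, CG10943 and CG13324 were dim in most pools, with 36, 29 and 31 of 46 arrays below the median of their own array. CG16762 and lncRNA:CR32368 lay below it on 5 and 6 arrays. All 3 dim genes lay above that median on every array of old flies on optimal food, in both lines.

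**Figure D1:**
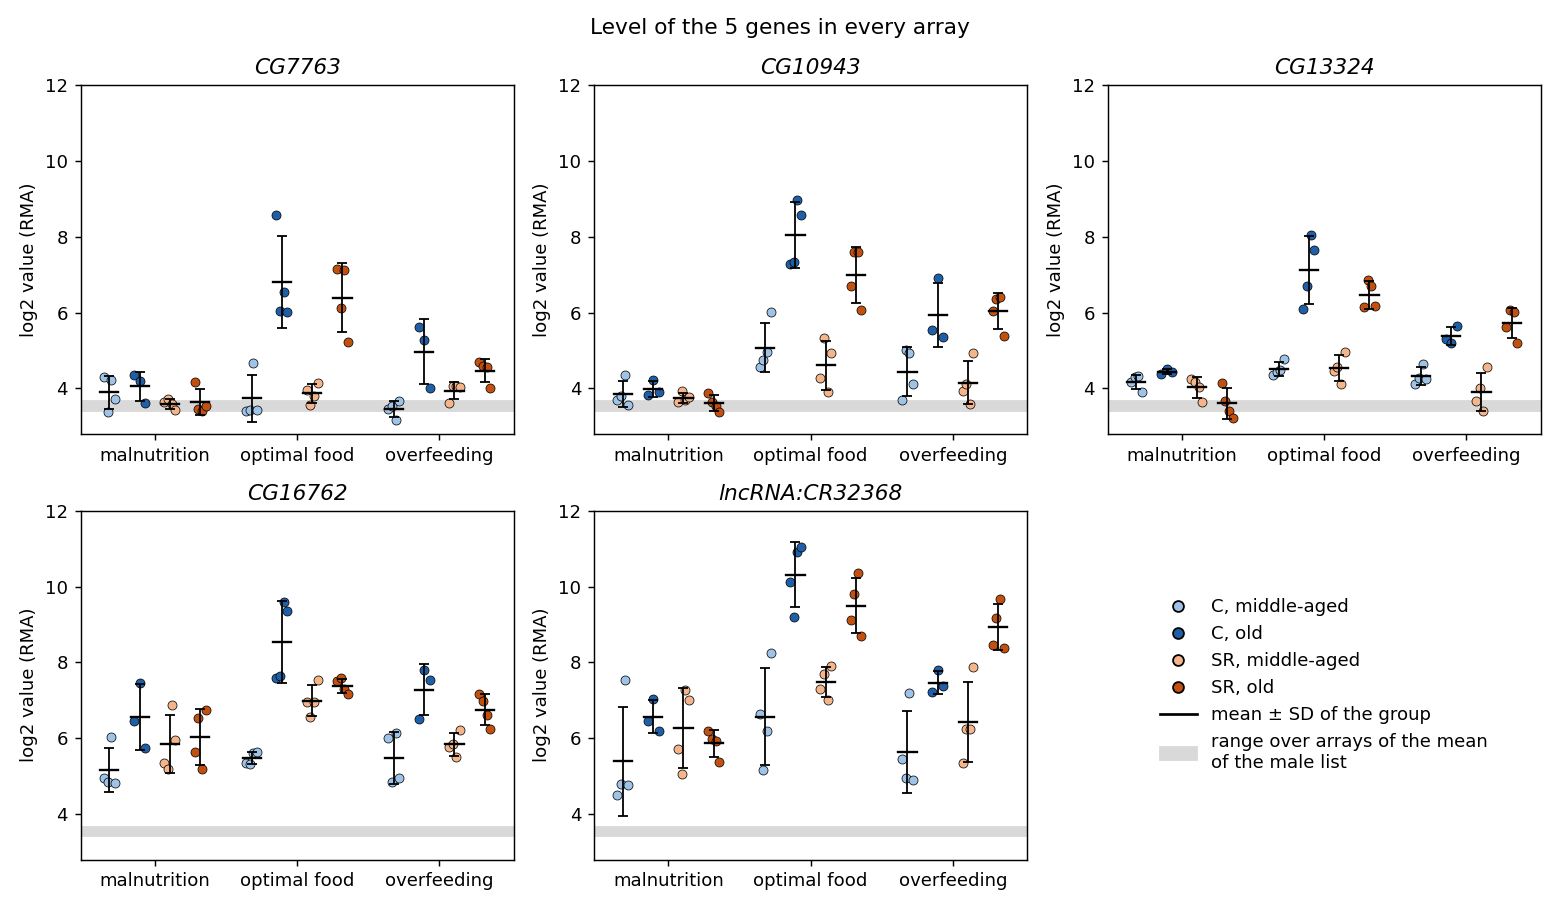
Log2 expression (vertical axis) of the 5 genes on each of the 46 arrays, by line, food and age, with points for arrays, black lines for group means with their SD, and a grey band at the level of the male genes (3.42 to 3.67). In each panel the old C flies on optimal food, a group used to pick the genes, have the highest mean, from 6.80 for CG7763 to 10.32 for lncRNA:CR32368. The old SR flies on optimal food follow.

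In C flies on optimal food all 5 genes had higher values in every old pool than in any middle-aged pool, and this is the pattern for which they were picked. CG7763 read 3.40, 3.44, 4.68 and 3.43 in the middle-aged pools and 8.57, 6.04, 6.55 and 6.02 in the old ones. The difference was 3.06 ± 0.39 on the log2 scale (standard error of the fit), or 8.33-fold. Of the middle-aged pools 3 lay as low as the male genes, which females should lack, so this fold may be too small. A single middle-aged pool at 4.68 stood above the other three, and a single old pool at 8.57 stood above the other old ones.

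CG10943 read 4.56, 4.75, 4.97 and 6.01 in middle-aged C flies on optimal food and 7.27, 7.32, 8.97 and 8.58 in old ones, a difference of 2.96 ± 0.39 (7.80-fold). CG13324 read 4.35, 4.43, 4.48 and 4.77, then 6.09, 6.71, 8.05 and 7.64, a difference of 2.61 ± 0.27 (6.12-fold). The old pools of both genes were spread over more than 1 log2 unit, with the same pool, replicate 3, at the top, and the middle-aged pools lay close together in CG13324 but not in CG10943.

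CG16762 read 5.35, 5.33, 5.62 and 5.63 in the middle-aged pools and 7.58, 7.65, 9.58 and 9.35 in the old ones, a difference of 3.06 ± 0.42 (8.34-fold). The RNA lncRNA:CR32368 read 6.65, 5.17, 6.20 and 8.25, then 10.12, 9.20, 10.90 and 11.05, a difference of 3.75 ± 0.60 (13.4-fold). Among all probe sets the 5 differences ranked 18 (CG7763), 21 (CG10943), 31 (CG13324), 17 (CG16762) and 9 (lncRNA:CR32368) by size. Without replicate 3 of the old pools, which was left out as an alternative chosen after seeing the data, the differences were 3.14, 2.65, 2.31, 2.71 and 3.55 in the same order.

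In C flies on overfeeding the differences with age were smaller. The old pools lay above the middle-aged ones in each gene, and the genes were picked for these rises too. CG7763 read 3.45, 3.54, 3.16 and 3.67 in middle-aged pools and 5.62, 5.28 and 4.01 in the 3 old ones, a difference of 1.52 ± 0.42. CG10943 read 3.69, 5.01, 4.94 and 4.11, then 5.54, 6.90 and 5.36, a difference of 1.50 ± 0.42. For CG7763 and CG10943 the gap between the highest middle-aged and the lowest old pool was narrow against the spread within the groups.

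CG13324 read 4.10, 4.27, 4.65 and 4.26 in middle-aged C flies on overfeeding and 5.30, 5.20 and 5.65 in old ones, a difference of 1.06 ± 0.30. CG16762 read 6.01, 4.84, 6.13 and 4.96, then 6.51, 7.80 and 7.54, a difference of 1.80 ± 0.45. The values of lncRNA:CR32368 were 5.45, 4.96, 7.21 and 4.91, then 7.21, 7.79 and 7.38, a difference of 1.83 ± 0.65. In lncRNA:CR32368 a middle-aged pool and the lowest old pool were nearly level. Old C flies read lower on overfeeding than on optimal food in all 5 genes, by log2 differences of -1.83 (CG7763), -2.10 (CG10943), -1.74 (CG13324), -1.26 (CG16762) and -2.85 (lncRNA:CR32368). Both sides of this comparison are values that chose the genes.

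The order of the 12 group means began alike in all 5 genes, with old C flies on optimal food first and old SR flies on optimal food second. The genes were picked for large rises to that first group, so its place follows in large part from the choice. Most neighbours in the order overlapped in their arrays, so most steps were not larger than the spread within groups. For CG7763 and CG10943 all 11 neighbouring pairs overlapped. For CG13324 9 of 11 overlapped, with breaks below old SR flies on optimal food and below old C flies on overfeeding. CG16762 had its only break below old C flies on optimal food, and lncRNA:CR32368 had its only break below old SR flies on overfeeding.

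The next question was whether these genes also differed with age in the SR line, whose arrays did not choose them. On optimal food CG7763, CG10943 and CG13324 rose with age in SR flies, by 5.76-fold, 5.21-fold and 3.84-fold. The test of lncRNA:CR32368 (4.03-fold) and that of CG16762 (0.40 on the log2 scale) did not pass. Thus 3 of the 5 genes were called higher in old flies, where 0.728% of all 18952 probe sets were called higher and 0.955% in either direction. The median log2 difference of the 5 genes was 2.01, against -0.02 over all probe sets.

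CG7763 read 3.97, 3.57, 3.79 and 4.15 in middle-aged SR flies on optimal food and 7.15, 6.11, 7.11 and 5.22 in old ones. CG10943 read 4.27, 5.33, 3.90 and 4.93, then 6.70, 7.59, 7.60 and 6.06. CG13324 read 4.45, 4.57, 4.13 and 4.97, then 6.14, 6.86, 6.71 and 6.18. In each of these genes every old pool lay above every middle-aged one. The log2 differences were 2.53 ± 0.39 for CG7763 (limma, adjusted p = 0.000191), 2.38 ± 0.39 for CG10943 (limma, adjusted p = 0.000453) and 1.94 ± 0.27 for CG13324 (limma, adjusted p = 3.33e-05).

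For lncRNA:CR32368 the middle-aged SR pools on optimal food read 7.31, 7.71, 7.02 and 7.90 and the old pools 9.12, 9.80, 10.35 and 8.71. These groups did not overlap, but the difference of 2.01 ± 0.60 missed the threshold (limma, adjusted p = 0.112, 95% interval 0.79 to 3.23). It passed with arrays centred on neuronal genes (limma, adjusted p = 0.0419). It did not pass with the germline mean as a covariate (limma, adjusted p = 0.0633) or with any array left out (limma, adjusted p = 0.0878 to 0.345). CG16762 read 6.95, 6.55, 6.95 and 7.52 in the middle-aged pools and 7.50, 7.58, 7.31 and 7.17 in the old ones. Here the groups overlapped, with a difference of 0.40 ± 0.42 (limma, adjusted p = 0.818, 95% interval -0.45 to 1.24). Middle-aged SR flies on optimal food already read higher than middle-aged C flies in this gene, by 1.51 ± 0.42 with no overlap, while old SR flies read lower than old C flies, by -1.15 ± 0.42 with no overlap. Those comparisons use the C arrays that chose the gene and were not tested.

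On overfeeding CG10943, CG13324 and lncRNA:CR32368 rose with age in SR flies, by 3.71-fold, 3.50-fold and 5.66-fold. These were 3 of the 5 genes, where 1.38% of all probe sets were called higher and 1.79% in either direction. CG10943 read 3.94, 4.13, 3.60 and 4.94 in middle-aged pools and 6.03, 6.35, 6.42 and 5.37 in old ones, a log2 difference of 1.89 ± 0.39 (limma, adjusted p = 0.00364). CG13324 read 3.68, 4.02, 3.40 and 4.56, then 5.62, 6.07, 6.01 and 5.19, a difference of 1.81 ± 0.27 (limma, adjusted p = 6.27e-05). In both genes the old pools all lay above the middle-aged ones.

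The RNA lncRNA:CR32368 read 5.35, 6.23, 6.24 and 7.87 in middle-aged SR flies on overfeeding and 8.46, 9.17, 9.66 and 8.39 in old ones, a difference of 2.50 ± 0.60 (limma, adjusted p = 0.017). The groups did not overlap, but this call rested on single pools: the adjusted p was 0.111 without replicate 1 and 0.0705 without replicate 3 of the middle-aged pools, and 0.0628 without replicate 2 and 0.0863 without replicate 3 of the old pools. CG7763 read 3.60, 4.06, 4.07 and 4.02, then 4.69, 4.59, 4.57 and 4.02, a difference of 0.53 ± 0.39 (limma, adjusted p = 0.705, 95% interval -0.27 to 1.33). CG16762 read 5.77, 5.85, 5.50 and 6.23, then 7.16, 6.98, 6.61 and 6.24, a difference of 0.91 ± 0.42 (limma, adjusted p = 0.396, 95% interval 0.07 to 1.75). The groups of CG16762 did not overlap, while those of CG7763 overlapped through the lowest old pool.

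Whether the change with age in SR flies differed between optimal food and overfeeding was tested as an interaction, and 0 of the 5 genes passed, where 0.0158% of all probe sets did. The largest such difference among the genes was that of CG7763, at -2.0 ± 0.56 (limma, adjusted p = 0.414, unadjusted p = 0.000934). In the other four it ran from -0.49 to 0.51.

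**Figure D2:**
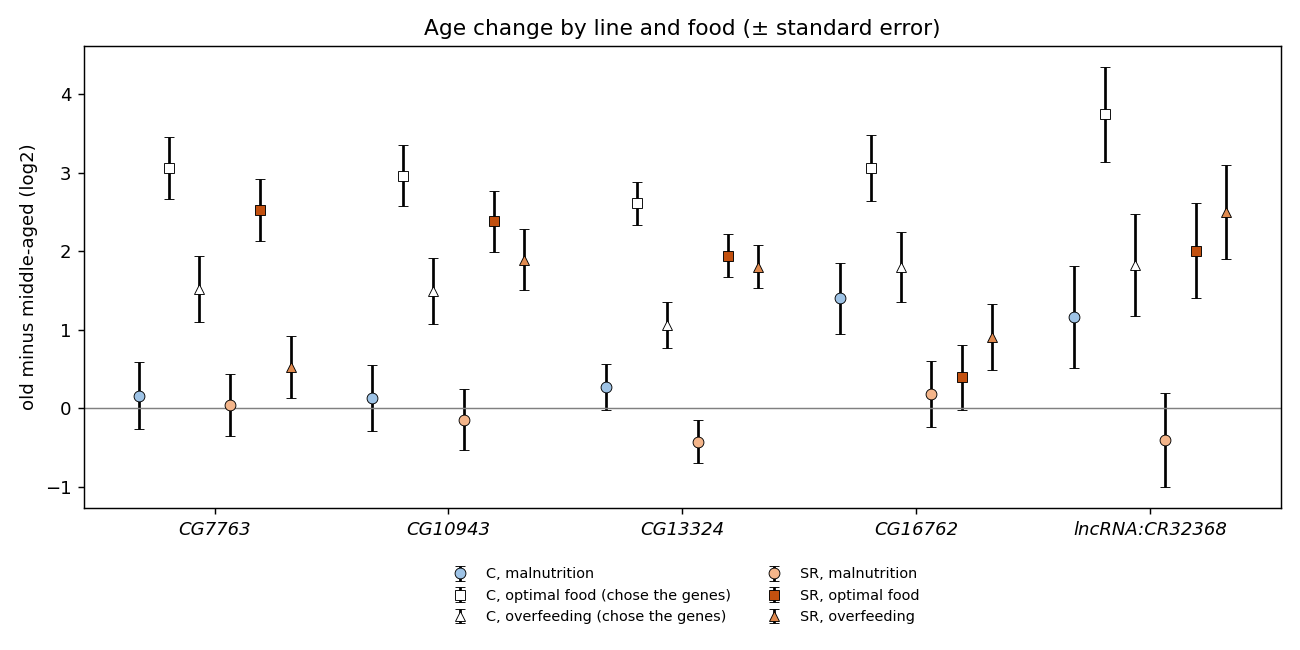
Log2 difference of old minus middle-aged flies (vertical axis, with the standard error of the fit) for each gene in the 6 combinations of line and food. Open symbols mark C flies on optimal food and overfeeding, whose values chose the genes, and on malnutrition the SR values lie between -0.42 and 0.18.

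On malnutrition no change with age passed the test in either line. In SR flies the differences were 0.04 (CG7763), -0.15 (CG10943), -0.42 (CG13324), 0.18 (CG16762) and -0.40 (lncRNA:CR32368), with 0 of 5 called, where 0.327% of all probe sets were called. The 95% intervals were -0.75 to 0.84 for CG7763, -0.94 to 0.64 for CG10943 and -0.98 to 0.13 for CG13324. For these 3 genes the intervals therefore lay below the differences on optimal food, which were 1.94 or more. The interval of lncRNA:CR32368 was -1.62 to 0.82 and that of CG16762 was -0.66 to 1.03.

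The pools of malnourished SR flies showed low values at both ages. CG7763 read 3.64, 3.73, 3.60 and 3.42 in middle age and 4.16, 3.46, 3.40 and 3.53 in old age. CG10943 read 3.65, 3.94, 3.68 and 3.76, then 3.89, 3.63, 3.55 and 3.37. CG13324 read 4.25, 4.18, 4.04 and 3.65, then 4.15, 3.66, 3.39 and 3.21. Old and middle-aged pools overlapped in each, and all of these values lay below the medians of their arrays. Some lay as low as the male genes, at 3.42 to 3.67 per array, so a further decrease could hardly have been read and folds against these pools may be too small. CG16762 read 5.34, 5.20, 6.87 and 5.96, then 5.64, 6.54, 5.19 and 6.74, and lncRNA:CR32368 read 5.72, 5.06, 7.28 and 7.01, then 6.18, 5.99, 5.92 and 5.36, again with overlap.

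In malnourished C flies 0 of the 5 genes passed for age, where 0.823% of all probe sets did. CG16762 read 4.94, 4.85, 6.03 and 4.81 in middle age and 6.46, 7.47 and 5.75 in old age, a difference of 1.40 ± 0.45 (limma, adjusted p = 0.159, unadjusted p = 0.00357, 95% interval 0.49 to 2.31). The RNA lncRNA:CR32368 read 4.50, 4.79, 7.53 and 4.76, then 6.45, 7.04 and 6.19, a difference of 1.17 ± 0.65 (limma, adjusted p = 0.619). In both genes a single middle-aged pool, replicate 3, reached or passed the lowest old pool.

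The remaining genes differed little with age in malnourished C flies. CG7763 read 4.29, 3.38, 4.22 and 3.71, then 4.35, 4.20 and 3.62. CG10943 read 3.68, 3.81, 4.36 and 3.56, then 3.83, 4.22 and 3.90. CG13324 read 4.16, 4.29, 4.32 and 3.89, then 4.38, 4.51 and 4.43. The differences were 0.16, 0.13 and 0.27, and only in CG13324 did the ages not overlap. Old C flies read lower on malnutrition than on optimal food by -2.74 (CG7763), -4.05 (CG10943), -2.68 (CG13324), -1.98 (CG16762) and -3.75 (lncRNA:CR32368), values that use the C arrays that chose the genes.

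The interaction in SR flies asked whether the change with age differed between malnutrition and optimal food. It passed for CG7763, CG10943 and CG13324, 3 of the 5 genes, each with a smaller change on malnutrition, where 0.454% of all probe sets were called lower and 0.67% in either direction. The differences were -2.48 ± 0.56 for CG7763 (limma, adjusted p = 0.0233), -2.53 ± 0.55 for CG10943 (limma, adjusted p = 0.0193) and -2.37 ± 0.39 for CG13324 (limma, adjusted p = 0.000792). The call of CG13324 was the firmest. That of CG7763 was lost without replicate 1 (adjusted p = 0.0599) or replicate 3 (0.0648) of old SR flies on optimal food, and that of CG10943 without replicate 2 (0.0572) or replicate 3 (0.0579) of the same group. For lncRNA:CR32368 the difference was -2.41 ± 0.85 (limma, adjusted p = 0.226) and for CG16762 -0.21 ± 0.59 (limma, adjusted p = 0.925).

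Set against optimal food, all 5 genes were lower on malnutrition in old SR flies. lncRNA:CR32368 was 12.4-fold lower, CG10943 10.4-fold, CG13324 7.30-fold, CG7763 6.76-fold and CG16762 2.57-fold. Of all probe sets 8% were called lower and 16.2% in either direction, and the median log2 difference was -2.87 over the 5 genes and 0.03 over all probe sets. The old pools on optimal food enter this comparison, the change with age and the interaction, so these tests are not independent of each other.

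The log2 differences between malnourished and optimally fed old SR flies were -2.76 ± 0.39 for CG7763 (limma, adjusted p = 1.24e-06), -3.38 ± 0.39 for CG10943 (limma, adjusted p = 2.27e-08) and -2.87 ± 0.27 for CG13324 (limma, adjusted p = 4.57e-10). For lncRNA:CR32368 the difference was -3.63 ± 0.60 (limma, adjusted p = 1.61e-05) and for CG16762 -1.36 ± 0.42 (limma, adjusted p = 0.0182). The last call was lost without replicate 3 of the malnourished pools (adjusted p = 0.104) and without replicate 2 of the optimally fed ones (0.0501).

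In middle-aged SR flies malnutrition gave 0 calls among the 5 genes, where 13.8% of all probe sets were called. The differences were -0.27 (CG7763), -0.85 (CG10943), -0.50 (CG13324), -1.15 (CG16762) and -1.21 (lncRNA:CR32368). CG16762 came nearest to the threshold (limma, adjusted p = 0.0595). All 5 values were below 0, though none passed.

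Markers of several tissues differed between malnourished and optimally fed old SR flies as well. All 15 measured genes of a gut list, among them digestive proteases and maltases, were lower (median log2 difference -2.68), and the mean of the list per array was 7.02 to 8.36 on malnutrition against 10.51 to 11.03 on optimal food. Of 15 measured neuronal genes 12 were higher (median 1.11), with means per array of 6.98 to 7.55 against 6.14 to 6.61. Of 15 fat body genes 9 were lower and 2 higher (median -0.60), and of 24 measured induced immune genes 13 were lower (median -0.95). Of 15 haemocyte genes 5 were lower (median -0.37), and of 28 germline genes 2 were lower and 1 higher (median 0.02). Over all probe sets 8% were called lower and 16.2% in either direction. No marker of these lists has a true zero on an array, and the part of these shifts in the values of the 5 genes was not tested. With age on optimal food, where CG7763, CG10943 and CG13324 rose, the gut list averaged 9.65 to 10.60 in middle-aged and 10.51 to 11.03 in old SR flies.

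**Figure D3:**
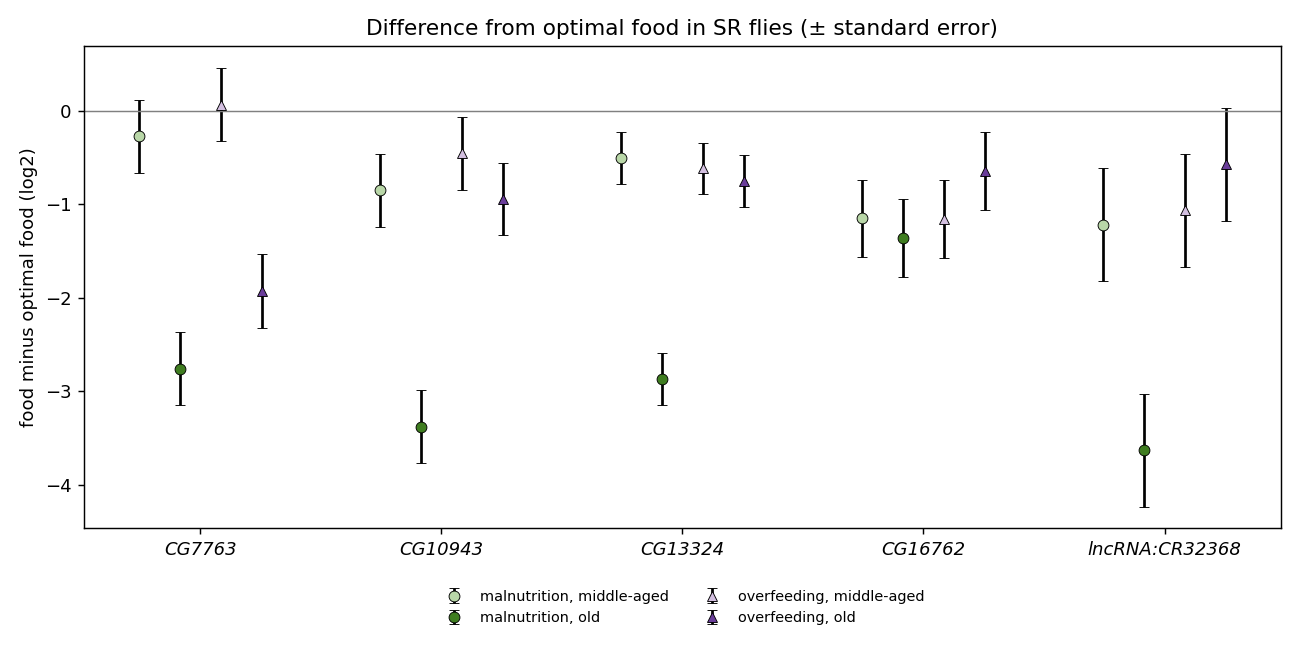
Log2 difference from optimal food (vertical axis, with the standard error of the fit) in SR flies, for malnutrition (circles) and overfeeding (triangles) at middle age (pale) and old age (dark). Old malnourished flies lie lowest in every gene, from -1.36 for CG16762 to -3.63 for lncRNA:CR32368.

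Overfeeding against optimal food changed 1 of the 5 genes in old SR flies, CG7763, which was lower by 3.80-fold (log2 difference -1.93 ± 0.39, limma, adjusted p = 0.0143). Here 0.116% of all probe sets were called lower and 0.248% in either direction. The overfed old pools read 4.69, 4.59, 4.57 and 4.02 against 7.15, 6.11, 7.11 and 5.22 on optimal food, with no overlap. The call was lost without replicate 1 (adjusted p = 0.116) or replicate 3 (0.0943) of the optimally fed pools, or without replicate 4 of the overfed pools (0.0899).

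The other four genes read lower on overfeeding in old SR flies without passing, by -0.94 (CG10943), -0.75 (CG13324), -0.64 (CG16762) and -0.57 (lncRNA:CR32368). In CG13324 and CG16762 the pools did not overlap. How many of all probe sets show no overlap was not counted, so a lack of overlap is not read as a difference here. In middle-aged SR flies 0 of 5 passed for overfeeding, where 1.1% of all probe sets did, and the differences ran from -1.16 in CG16762, again with no overlap, to 0.07 in CG7763.

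Between lines, tests were possible on malnutrition, and 0 of the 5 genes passed at either age, where 3.41% of all probe sets passed in middle age and 3.59% in old age. SR minus C in middle age was -0.30 (CG7763), -0.09 (CG10943), -0.14 (CG13324), 0.69 (CG16762) and 0.87 (lncRNA:CR32368). In old age it was -0.42, -0.37, -0.84, -0.53 and -0.70 in the same order. CG13324 (limma, adjusted p = 0.127, 95% interval -1.44 to -0.24) and lncRNA:CR32368 (limma, adjusted p = 0.746) had no overlap between the old pools of both lines. That is a description, since the share of all probe sets without overlap was not counted. The change with age did not pass as different between lines on malnutrition for any of the 5, where 0.0264% of all probe sets passed.

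On the other foods the line differences are a description. Old SR flies read lower than old C flies on optimal food in all 5 genes, by -0.40 (CG7763), -1.05 (CG10943), -0.65 (CG13324), -1.15 (CG16762) and -0.82 (lncRNA:CR32368), but only CG16762 showed no overlap. The genes were picked for rises to these old C values, so lower values in SR flies go with the choice. On overfeeding old SR flies read higher than old C flies in lncRNA:CR32368, by 1.46 ± 0.65 with no overlap, and in the other four genes the difference ran from -0.54 to 0.34.

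Each gene was next set against its neighbours on the chromosome, the nearest 2 on either side that had a probe set, 20 genes in all. A pair of them moved with a gene described here. CG13323, next to CG13324, rose with age in SR flies on optimal food by 1.06 ± 0.19 (limma, adjusted p = 0.0014) and on overfeeding by 1.21 ± 0.19 (limma, adjusted p = 8.86e-05), and was lower in old SR flies on malnutrition by -1.59 ± 0.19 (limma, adjusted p = 4.01e-08). CG32107, next to CG10943, rose with age on optimal food by 1.36 ± 0.27 (limma, adjusted p = 0.00533), while its difference on overfeeding was 0.71 ± 0.27 (limma, adjusted p = 0.248). In old SR flies on malnutrition CG32107 was lower by -1.87 ± 0.27 (limma, adjusted p = 2.07e-06). Both are named by a number alone, as the genes beside them are. Whether the probe sets of these neighbours also read RNA of the genes beside them was not tested.

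Over the 46 arrays CG13323 correlated with CG13324 at r = 0.978 and CG32107 with CG10943 at r = 0.922. The other 18 neighbours passed for age in SR flies on neither optimal food nor overfeeding. For malnutrition in old SR flies 4 of the 20 were lower and 3 higher, where 16.2% of all probe sets were called, and among the lower ones was Cyp4d20, a cytochrome P450 gene next to CG16762, at -1.27 ± 0.23 (limma, adjusted p = 6.23e-05). Cyp4d20 correlated with CG16762 at r = 0.237 over the arrays.

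**Figure D4:**
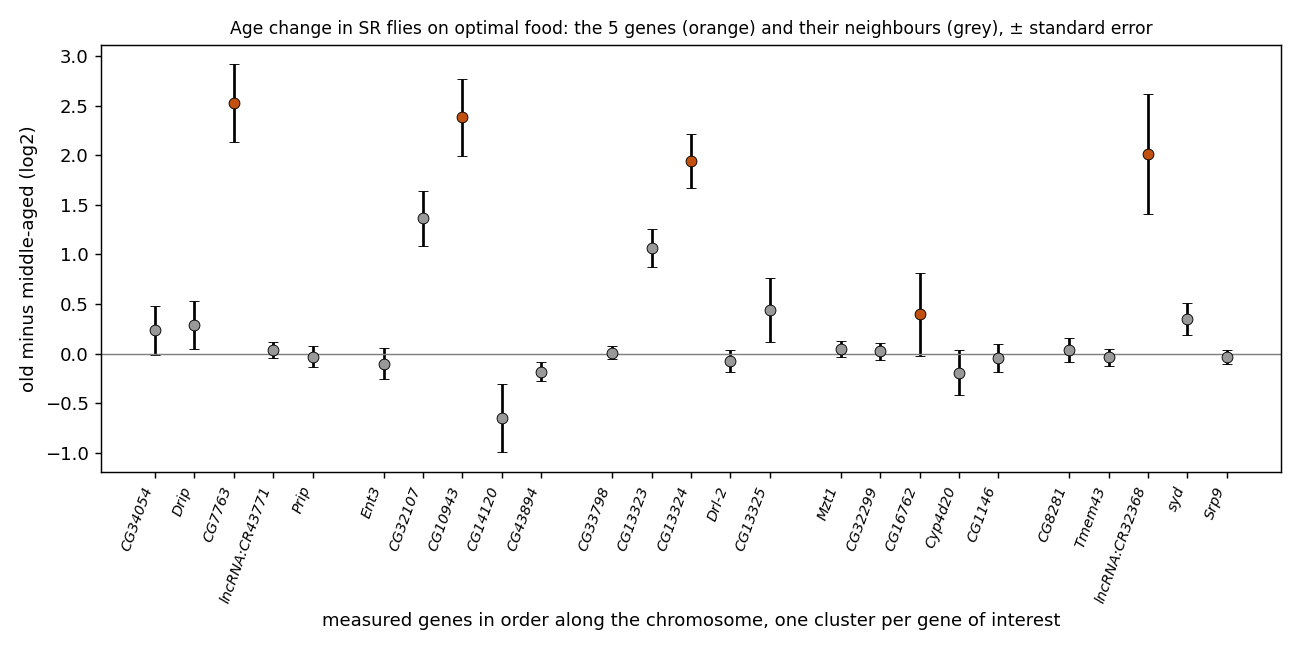
Log2 difference of old minus middle-aged SR flies on optimal food (vertical axis, with the standard error of the fit) for each of the 5 genes and its nearest neighbours with a probe set, in their order along the chromosome. CG13323 (1.06) and CG32107 (1.36) are the neighbours that passed the test.

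The genes whose levels ran most like those of each gene over the 46 arrays were looked for among 11980 other named genes. CG13324 was closest to its neighbour CG13323 (r = 0.978) and then to CG44251 (r = 0.961) and CG10943 (r = 0.953). CG10943 was closest to CG13324, followed by CG3987 (r = 0.937) and CG31087 (r = 0.933). For lncRNA:CR32368 the closest were CG8353 (r = 0.923), Mur29B (r = 0.911), a mucin-related gene, and CG43064 (r = 0.908). CG8353 stood among the closest 5 of CG7763, CG10943 and CG13324 as well.

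CG16762 was closest to lncRNA:CR32368 (r = 0.831) and then to PGRP-LB (r = 0.791), a peptidoglycan recognition protein that cleaves bacterial peptidoglycan. CG7763 was closest to mthl2 (r = 0.813), a methuselah-like receptor gene, and to CG32107 (r = 0.810). These arrays share the 12 groups, so such a correlation carries the group differences, and they include the C arrays that chose the genes. The closest genes were picked by r over these same arrays, so the values below are a description with no test. With group means removed, CG13323 and CG13324 correlated at 0.904, CG10943 and CG3987 at 0.765, and CG43064 and lncRNA:CR32368 at 0.737. For mthl2 and CG7763 the value was 0.419, and for PGRP-LB and CG16762 it was 0.270.

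With the group means removed, movement from pool to pool was tested on the 31 arrays of the 8 groups that did not choose the genes, a choice made after seeing the data. Of 15 relations computed, the closest between the genes was that of CG10943 with CG13324 (Pearson's r = 0.80, Spearman's rho = 0.82, adjusted p = 7.5e-05 and 0.00015, permutation test within groups, two-sided). Without the 2 arrays farthest from the median of CG10943, r was 0.78. The pairs CG10943 with lncRNA:CR32368 (r = 0.64, permutation test, adjusted p = 0.00075), CG16762 with lncRNA:CR32368 (r = 0.54, permutation test, adjusted p = 0.0169) and CG13324 with lncRNA:CR32368 (r = 0.47, permutation test, adjusted p = 0.0292) also passed. These 3 values were 0.57, 0.49 and 0.36 without the 2 farthest arrays. CG7763 correlated with the other four at 0.25 to 0.39, and CG16762 with CG10943 and CG13324 at 0.25 and 0.17, none of which passed.

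The mean of 28 measured germline genes was lower within groups where CG13324 was higher (31 arrays, r = -0.70, rho = -0.67, permutation test, adjusted p = 7.5e-05 and 0.00065, without the 2 farthest arrays r = -0.64). It was also lower where CG10943 was higher (r = -0.43, rho = -0.48, permutation test, adjusted p = 0.021 and 0.0262). It passed with none of the other three genes. In SR flies on optimal food the germline list averaged 9.58 to 9.76 per array in middle age and 9.41 to 9.74 in old age. With the germline mean as a covariate the log2 differences with age in SR flies were 2.30 ± 0.36 for CG10943 and 1.85 ± 0.19 for CG13324 on optimal food, and 1.61 ± 0.37 and 1.48 ± 0.20 on overfeeding.

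**Figure D5:**
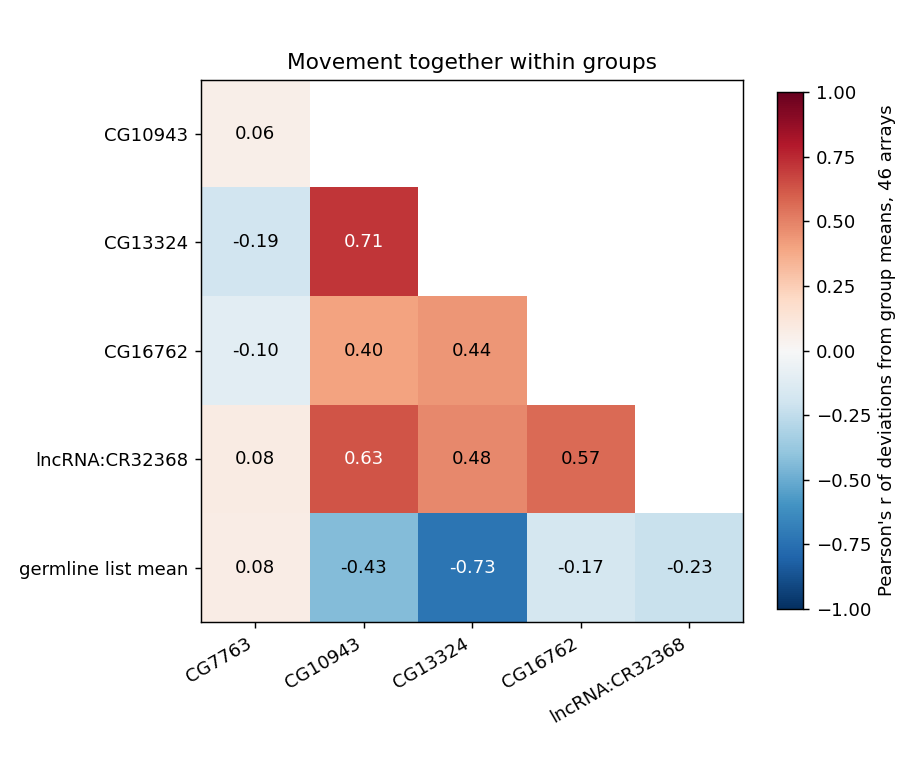
Pearson's r between the deviations of each pair of genes, and of the germline list mean, from their group means over all 46 arrays, as colour and number, given as a description since 15 of these arrays chose the genes. The 4 genes other than CG7763 correlate at 0.40 to 0.71 with each other and CG7763 at -0.19 to 0.08, where the 31 arrays that did not choose the genes gave 0.17 to 0.80 and 0.25 to 0.39.

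CG7763 was also set among the other genes with a C-type lectin domain, of which 27 of 36 listed were measured. With age in SR flies on optimal food, where 0.728% of all probe sets were called higher, 2 of the 27 rose, CG7763 itself, which is in the list, and CG14499 (2.33, limma, adjusted p = 0.0215), and the median of the list was -0.06. On overfeeding 0 of 27 passed. On malnutrition in old SR flies 5 were lower and 2 higher, where 16.2% of all probe sets were called, with a median of -0.08. The lower ones were CG14500 (-3.02), CG7763 itself (-2.76), CG14499 (-2.63), CG15358 (-1.35) and CG15818 (-1.31). The higher ones were CG9095 (0.63) and CG15765 (0.43).

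Genes that infection is known to induce were counted beside them, since antimicrobial peptides and recognition proteins are the best known genes of this kind in flies. Of 24 measured, 5 rose with age in SR flies on optimal food, where 0.728% of all probe sets were called higher, namely Def, DptB and Drsl2, which encode antimicrobial or related peptides, PGRP-SB1, a peptidoglycan recognition protein, and pirk, a brake on the immune deficiency pathway. These were named after their values were seen. The median of the list was 0.37 on optimal food and 0.70 on overfeeding, where 6 rose against 1.38% of all probe sets. Of 8 measured Turandot genes and targets of JAK-STAT signalling 2 rose on optimal food and 1 on overfeeding.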

How the data were processed

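The authors deposited log2 expression values made by RMA, a method that subtracts background, gives every array the same distribution and combines the probes of a set into a single value. The submitters' processing notes name R 2.7.0. A shift common to most genes is thereby lost from the values. The study left out some arrays for quality. The table holds 18952 probe sets, and the platform annotation gives 1 gene symbol for 13646 of them. RefSeq's fly annotation was used for names and neighbours only. Array values carry no depth, so the number of arrays limits the precision.

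A model with 1 mean for each of the 12 groups was fitted to all 46 arrays by limma 3.58.1 in R 4.3.3, two-sided, with Benjamini-Hochberg adjustment over all probe sets and an adjusted p under 0.05 as the threshold. P-values measure the spread between pools of these lines. Overlap of pools between groups is given as a description throughout, and its share over all probe sets was not counted. Of the 13 comparisons tested, none uses a group mean of C flies on optimal food or overfeeding. The arrays of these flies do enter the shared estimate of spread. Correlations of deviations from group means were tested on the other 31 arrays in Python 3.11.15 with 100000 resamples that shuffled arrays within groups, where all 46 had been planned. The fit was tried on simulated data for differences between groups, but not for interactions, and the correlation tests were not simulated.

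The genes and all gene lists were chosen with earlier results of these data known. Named were the 5 genes, for each the 5 genes most like it over the arrays (1 probe set per gene, the brightest) and its 2 measured neighbours on either side, up to 4 members of each list by mean level, and lectin genes that passed where a member passed. The germline genes vas and bgcn were added as dim members of their list. Alternatives were each array left out in turn, the replicate number as a block, a mean-variance trend, the 31 arrays of the 8 groups that did not choose the genes, probe sets with a mean of at least 5, arrays centred on neuronal genes, and the germline mean as a covariate. Sequences were not used here.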

Additional observations from a re-analysis of the deposited data

Results flagged for a closer look

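Of the sets of 4 arrays checked, 50 in all over the genes and groups, 4 held a pool far from the other three, and chance flags about 1 in 20 groups. CG7763 read 4.68 in replicate 3 of middle-aged C flies on optimal food, where the others read 3.40 to 3.44, and 3.60 in replicate 1 of middle-aged SR flies on overfeeding, where the others read 4.02 to 4.07. In replicate 3 of middle-aged C flies on malnutrition CG16762 read 6.03 against 4.81 to 4.94, and lncRNA:CR32368 read 7.53 against 4.50 to 4.79. The last pair come from the same pool.

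The change with age in SR flies differed between malnutrition and optimal food by -2.48 for CG7763, by -2.53 for CG10943 and by -2.37 for CG13324, each tested as an interaction.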

How the results depend on the processing

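Of 65 differences tested, 15 passed. Under the alternatives 213 of their 226 values passed, 13 did not, all with 1 array left out, and 0 turned direction. Those for malnutrition in old SR flies under neuronal centring say little. With each array left out, the count of genes called ran from 2 to 3 for age in SR flies on overfeeding, 0 to 1 for malnutrition in middle-aged and 4 to 5 in old SR flies, 0 to 1 for overfeeding in old SR flies, 0 to 1 for the lines in old malnourished flies, and 1 to 3 for age by malnutrition, 1 being without replicate 3 of old SR flies on optimal food. No gene has another probe set to try.

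Keeping only probe sets with a mean of at least 5, which leaves out CG7763 and CG13324, gave 1 gene in place of 3 for age in optimally fed SR flies and for age by malnutrition, 3 in place of 5 and 0 in place of 1 for malnutrition and overfeeding in old SR flies, and 1 in place of 0 for malnutrition in middle-aged ones. The arrays of the 8 groups alone and the germline covariate also gave 1 gene there, CG16762 (adjusted p = 0.0413 and 0.0455). With the covariate 2 genes in place of 1 passed for overfeeding in old SR flies and 1 in place of 0 for the lines in old malnourished flies.

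Centring on neuronal genes moved the median of all probe sets by -0.92 for malnutrition in old SR flies, -0.56 in middle-aged ones and 0.43 for overfeeding in middle-aged ones. It called 5 genes in place of 0 for malnutrition in middle-aged SR flies. There it called 14252 of 18952 probe sets lower, and 17952 in old ones, so its calls at both ages say little about the genes. It called 1 gene in place of 0 for the lines in old malnourished flies, where it called 474 probe sets. It added lncRNA:CR32368 for age in optimally fed SR flies and for age by malnutrition (limma, adjusted p = 0.0419 and 0.0437). Reversed, none of them past the threshold, were -0.22 for CG7763 and -0.073 for CG16762 for age in malnourished SR flies under this centring, and 0.077 for CG10943 and 0.065 for CG13324 for the lines in middle-aged malnourished flies under the covariate. With 1 array left out, signs turned in CG7763 and CG16762 for age in malnourished SR flies (-0.13 to 0.12 and -0.053 to 0.53), in CG7763 for age in malnourished C flies (-0.016 to 0.38), for overfeeding in middle-aged SR flies (-0.032 to 0.18) and for line by age (-0.34 to 0.056), in CG10943 for the lines in middle-aged malnourished flies (-0.19 to 0.073), in CG16762 for age by malnutrition (-0.45 to 0.13) and in CG13324 for age by overfeeding (-0.31 to 0.078). The cause was not tested.

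Over all probe sets, the covariate called 537 in place of 181 for age in SR flies on optimal food, 413 in place of 62 on malnutrition, 615 in place of 156 for age in malnourished C flies, 552 in place of 127 for age by malnutrition, 188 in place of 47 for overfeeding in old SR flies, 4247 in place of 2607 for malnutrition in middle-aged SR flies, and 1087 and 1341 in place of 647 and 681 for the lines. Centring gave 289, 303, 242 and 644 in the first 4 of these, 14381 and 18136 for malnutrition in middle-aged and old SR flies, and 12201 in place of 208 for overfeeding in middle-aged ones. The share of higher calls went from 53.5% to 0.897%, from 50.7% to 1.01% and from 17.8% to 98.5% in the last 3, and from 76.2% to 90.3% for age in SR flies on optimal food. The 8 groups alone called 77 for overfeeding in middle-aged SR flies and 31 for age in malnourished ones.

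The labels do not say whether replicate numbers pair the arrays, and deviations of same-numbered arrays correlated at -0.45 to 0.42. With the replicate block all 65 differences kept their direction and call. For age in SR flies on optimal food 207 probe sets in place of 181 passed.

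From all 46 arrays to the 31, within-group correlations changed sign for CG7763 with CG13324 (to 0.32) and CG16762 (to 0.25) and for the germline mean with CG7763 (to -0.10) and CG16762 (to 0.10), none past the threshold. CG10943 with CG16762 passed on 46 arrays (r = 0.40) and not on 31 (0.25).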
